A study of Arabidopsis thaliana with 6 samples.

Results

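The genes described are 10 NAC transcription factor loci of Arabidopsis thaliana, out of 28775 loci in a table of read counts. They are NAC1 (AT1G56010), NAP (AT1G69490), ORE1 (AT5G39610), JUB1 (AT2G43000), NAC032 (AT1G77450), ATAF1 (AT1G01720), NAC102 (AT5G63790), NAC019 (AT1G52890), RD26 (AT4G27410) and NAC100 (AT5G61430). They were chosen by locus with the dexamethasone and mock counts already known. The list joins NAC1, whose difference between the treatments had been seen, to NAC genes of stress, senescence or miR164 control, so their values in that comparison, and their calls in the fit over all genes, are given as a description with no p-value. Inflorescence apices were sampled from plants treated 2 weeks after bolting, either with dexamethasone or with mock. In the dexamethasone group (3 libraries, Dx4, Dx5 and Dx6) this synthetic steroid induced AP2m3, a miR172-resistant version of APETALA2 (AP2), a transcription factor that acts in flowers and in the shoot meristem. The mock group (3 libraries, CT1, CT2 and CT3) received the mock treatment. Both groups were kept at 21 °C in days of 16 h light and 8 h dark, and tissue was taken 6 to 8 h after treatment with the visible flower primordia cut away. The sources used here give neither the plant genotype nor the promoter that drives the transgene.

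NAC proteins are plant-specific transcription factors that share a DNA-binding domain at the amino end and differ in the rest of the protein. NAC1 acts in auxin signalling and lateral root formation, and its transcript is cleaved under the guidance of miR164, as are those of ORE1, NAC100 and the organ boundary genes CUC1 and CUC2. NAP and ORE1 promote leaf senescence, JUB1 delays it, and ATAF1, NAC032, NAC102, NAC019 and RD26 respond to drought, abscisic acid (ABA), jasmonate or low oxygen.

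The miR164 site is shown because it divides the 10 genes into those that carry it and those that do not. Sequences are from RefSeq, assembly TAIR10.1, and the build behind the read counts is not stated. The mature miRNAs ath-miR164a (chr2:19520770-19520790, plus strand) and ath-miR164b-5p (chr5:287586-287606, plus strand) are identical, and ath-miR164c-5p (chr5:9852684-9852704, plus strand) has the same seed. Capitals mark the seed, bases 2 to 8.
ath-miR164a and ath-miR164b-5p: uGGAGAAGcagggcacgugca
ath-miR164c-5p: uGGAGAAGcagggcacgugcg
The best match to the complement of miR164a in each transcript was searched over all windows of 21 bases. Capitals in the sites mark bases identical to the complement. The NAC1 site (chr1:20947142-20947162, minus strand) and the NAC100 site (chr5:24701687-24701707, minus strand) each had 2 mismatches, and the ORE1 site (chr5:15858797-15858817, minus strand) had 4. Outside the 10 genes, the site of CUC1 (chr3:5111137-5111157, plus strand) has the same letters as that of CUC2 (chr5:21902301-21902321, minus strand), with 3 mismatches.
NAC1 site: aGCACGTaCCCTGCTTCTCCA
NAC100 site: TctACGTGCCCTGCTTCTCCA
ORE1 site: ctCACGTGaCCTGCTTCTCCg
CUC1 and CUC2 site: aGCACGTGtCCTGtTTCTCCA
All these sites lie in coding exons. Among 27444 protein-coding genes, 3 had a window with at most 2 mismatches, namely NAC1, NAC100 and another NAC gene, NAC080, and 13 (0.0474%) had one with at most 4. The other 7 of the 10 genes had 8 or 9 mismatches at best.

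The libraries held 1633571 to 2196781 counts, so the limit that a count of 0 allows, taken as 3 counts, lies at 1.38 to 1.88 CPM (counts scaled to library size) per library. The AP2 transcript (AT4G36920) checked the labels. It had 1100, 1188 and 1009 CPM in Dx4, Dx5 and Dx6, against 55.7, 60.5 and 78.1 CPM in CT1, CT2 and CT3, a log2 fold change of 4.08 ± 0.15 (SE; edgeR quasi-likelihood test, Benjamini-Hochberg adjusted p = 2.8e-13). Of 6 inflorescence meristem markers CLV3 had no count in any library and WUS had 25 counts over the dexamethasone libraries and 28 over the mock libraries, while the summed level was 262 to 279 CPM with dexamethasone and 203 to 249 CPM in mock. The markers went different ways within that sum. CLV1, a receptor kinase of the meristem, rose to 93.0 ± 3.45 CPM with dexamethasone, against 56.2 ± 9.88 CPM in mock (log2 fold change 0.72 ± 0.14, edgeR adjusted p = 0.00179), and TFL1, which keeps the inflorescence indeterminate, fell to 3.66 ± 0.728 CPM, against 11.8 ± 8.82 CPM in mock (-1.59 ± 0.50, edgeR adjusted p = 0.0424). The TFL1 call was lost without CT1 (log2 fold change -0.88), Dx4, Dx5 or Dx6 (edgeR adjusted p up to 0.212). The DESeq2 Wald test did not call TFL1 (adjusted p = 0.0554). The root markers PLT1, PLT2 and RHD6 had no count. The libraries also differed in time-of-day genes. The summed level of 8 dawn-phased clock genes was 61.9, 53.5 and 41.4 CPM in Dx4, Dx5 and Dx6, and 165, 121 and 73.5 CPM in CT1, CT2 and CT3. The mock libraries thus differed from each other on this sum by as much as 2.24-fold, and CT3 lay closest to the dexamethasone libraries. LNK1 and LNK2 made up most of the sum, at 63.3 and 63.3 CPM in CT1 and 40.9 and 21.9 CPM in CT3. Only 3 of the 8 genes, LNK1, LNK2 and RVE1, had enough counts to be tested. RVE1 did not follow the mock order of the sum (5.64, 8.25 and 6.51 CPM in CT1, CT2 and CT3).

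Of the 10 genes, 7 passed the filter on low counts and entered the fit over all genes. NAC1 met the filter through the dexamethasone libraries alone, and NAP through the mock libraries alone, so their passing is tied to their difference. NAC019 met it in the mock libraries and also in Dx4 and Dx6. An adjusted p under 0.05 over the 15857 genes tested is what "called" means here. NAC1 was called higher with dexamethasone, where 5.86% of all tested genes were called higher. NAP and NAC019 were called lower, where 8.02% of all tested genes were called lower. That makes 3 of 7 in either direction, against 13.9% of all tested genes. The groups did not overlap in CPM for 4 of the 7, namely NAC1, NAP, NAC102 and NAC019, against 31% of all tested genes. Since the genes were chosen with this comparison known, nothing is read from these counts.

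**Figure D1:**
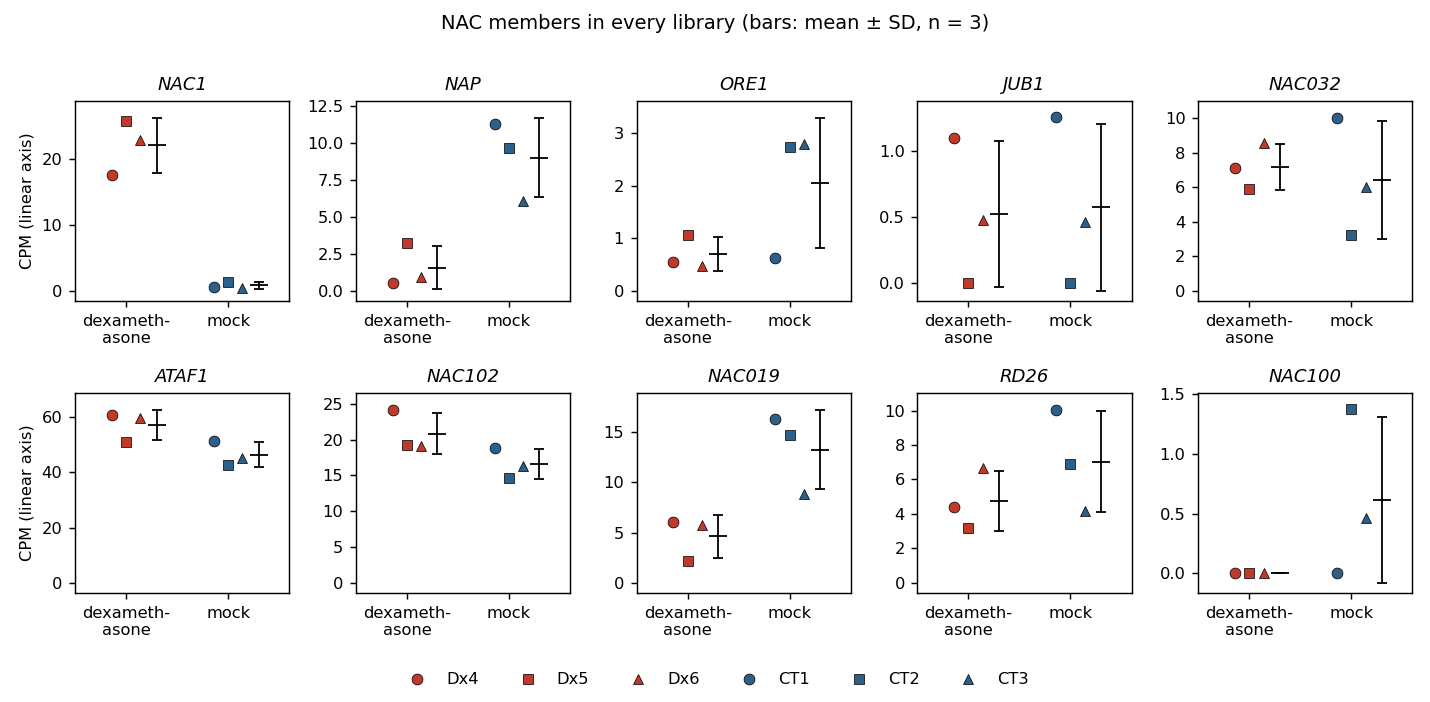
CPM of the 10 NAC genes in each library, with dexamethasone libraries (red) left of mock libraries (blue), a symbol for each library and a bar for the mean ± SD (n = 3). NAC1 lies at 17.5 to 25.7 CPM with dexamethasone and 0.465 to 1.38 CPM in mock, NAP and NAC019 are lower with dexamethasone in all libraries, and the other panels overlap or nearly overlap.

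NAC1, a factor of auxin signalling, was readily detected in dexamethasone apices and at the counting limit in mock apices. It had 32, 48 and 48 counts in Dx4, Dx5 and Dx6 (17.5, 25.7 and 22.9 CPM), against 1, 3 and 1 counts in CT1, CT2 and CT3 (0.626, 1.38 and 0.465 CPM). All 3 mock values were at or under the limit that a count of 0 allows, and the lowest dexamethasone value stood far above the highest mock value. The fitted log2 fold change was 4.61 ± 0.41 (SE). The ratio of the pooled CPM was 26.2, with an exact binomial 95% interval of 10.9 to 82.1 that covers counting error only. Without CT2, the mock library with 3 of the 5 mock counts, the log2 fold change was 5.20, and over leaving out each library it was 4.30 to 5.20.

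The NAC1 gene lies at chr1:20946571-20949281 on the minus strand, with 2 annotated transcripts, 3 exons and a coding sequence of 324 codons. Of its 50-base exon words, 33.2% also lie in exons of another gene on the opposite strand, 29.4% in the long non-coding RNA AT1G08087 and 3.83% in the protein-coding gene AT1G56000. None was shared with a gene on the same strand. The library kit keeps strand, per the labels' protocols, but whether the counting used it is not stated. AT1G08087 has no row in the read counts, so its level is not known here. If strand was ignored, any reads from it in the shared exons cannot be told apart from those of NAC1. AT1G56000 had 15, 23 and 18 counts in Dx4, Dx5 and Dx6 and 16, 24 and 14 counts in CT1, CT2 and CT3, with overlapping groups and a log2 fold change of 0.08 ± 0.31 (edgeR adjusted p = 0.904). The next counted gene, AT1G56020, had a log2 fold change of -0.20 ± 0.17 (edgeR adjusted p = 0.517).

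Of the genes around miR164, CUC1 and CUC2, which set the boundaries between organs, were not called. CUC1 had 93 counts over the dexamethasone libraries and 98 over the mock libraries, at 16.1 ± 2.76 and 16.4 ± 1.58 CPM (SD, n = 3 each; log2 fold change -0.04 ± 0.23, edgeR adjusted p = 0.945). CUC2 had 116 counts over the dexamethasone libraries and 120 over the mock libraries, at 20.1 ± 1.21 and 20.5 ± 2.53 CPM (log2 fold change -0.02 ± 0.20, edgeR adjusted p = 0.967). For both genes the libraries of the groups overlapped. NAC080 had no count with dexamethasone and 2 in mock. The 3 miR164 precursors are barely seen by this assay, with 0 to 2 counts per gene and group. Of these 6 genes only CUC1 and CUC2 were tested. Neither was called by edgeR, DESeq2 or limma-voom, and 0 had an unadjusted edgeR p under 0.05.

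NAC100, the gene whose site matches miR164 as closely as that of NAC1, had no count in Dx4, Dx5 or Dx6, against 0, 3 and 1 counts in CT1, CT2 and CT3. ORE1, a central activator of age-dependent leaf senescence that RefSeq lists as NAC6, had 1, 2 and 1 counts in Dx4, Dx5 and Dx6, against 1, 6 and 6 counts in CT1, CT2 and CT3. JUB1, which extends leaf lifespan, had 2, 0 and 1 counts in Dx4, Dx5 and Dx6, against 2, 0 and 1 counts in CT1, CT2 and CT3. These 3 genes did not pass the filter on low counts. For ORE1 the pooled mock CPM was 3.18 times the pooled dexamethasone CPM, with an exact binomial 95% interval of 0.981 to 13.4. For NAC100 and JUB1 no difference was detectable at this depth.

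NAP, a promoter of leaf senescence that acts through ABA and chlorophyll loss, was lower with dexamethasone. RefSeq also describes NAP as activated by AP3/PI, and the floral organ genes AP3 and PI were not called (log2 fold changes 0.32 and 0.04). NAP had 1, 6 and 2 counts in Dx4, Dx5 and Dx6 (0.548, 3.21 and 0.953 CPM), against 18, 21 and 13 counts in CT1, CT2 and CT3 (11.3, 9.63 and 6.05 CPM). The groups did not overlap, and Dx5 and CT3 were the closest libraries. The log2 fold change was -2.46 ± 0.51, a level 5.49-fold lower. The ratio of pooled mock to pooled dexamethasone CPM was 5.65, with an exact binomial 95% interval of 2.76 to 13.03. Without Dx5, which holds 6 of the 9 dexamethasone counts, the log2 fold change was -3.43. In a fit that adds the mean log2 level of the 8 dawn-phased genes as a covariate, called the dawn-gene covariate from here on, it was -1.85 and no longer called. The summed level of these genes was lower in every dexamethasone library than in any mock library. Covariate and treatment therefore overlap, and their parts cannot be told apart. The SE for NAP was 0.66 in that fit, against 0.51 without the covariate. Each of the 8 dawn-phased genes counts equally in the covariate, and 5 of them had too few counts to be tested.

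NAC019, which acts in drought, ABA and jasmonate responses, was lower with dexamethasone as well. It had 11, 4 and 12 counts in Dx4, Dx5 and Dx6 (6.03, 2.14 and 5.72 CPM), against 26, 32 and 19 counts in CT1, CT2 and CT3 (16.3, 14.7 and 8.84 CPM). Every dexamethasone library was under every mock library, with CT3 nearest to them. The log2 fold change was -1.48 ± 0.37, a level 2.79-fold lower, and the pooled ratio of mock to dexamethasone CPM had an exact binomial 95% interval of 1.78 to 4.50. Its call was lost without CT2 (log2 fold change -1.38), without Dx5 (-1.15) and with the dawn-gene covariate (-0.96).

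RD26, the closest relative of NAC019 among the 10 genes in coding sequence and an activator of drought and ABA responses, was not called. It had 8, 6 and 14 counts in Dx4, Dx5 and Dx6 (4.38, 3.21 and 6.67 CPM), against 16, 15 and 9 counts in CT1, CT2 and CT3 (10.02, 6.88 and 4.19 CPM). The groups overlapped, since Dx4 and Dx6 were above CT3. The log2 fold change of -0.49 ± 0.41 turned to 0.16 with the dawn-gene covariate.

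ATAF1, NAC102 and NAC032, a group of closely related stress genes, were not called, and their log2 fold changes were small and positive. ATAF1, a regulator of ABA, sugar and senescence genes, had 111, 95 and 125 counts in Dx4, Dx5 and Dx6 (60.8, 50.8 and 59.5 CPM), against 82, 93 and 97 counts in CT1, CT2 and CT3 (51.4, 42.6 and 45.1 CPM). Dx5 lay just under CT1, so the groups overlapped by this pair. The mean was 57.1 ± 5.44 CPM with dexamethasone and 46.4 ± 4.50 CPM in mock (SD, n = 3 each), a log2 fold change of 0.31 ± 0.15. NAC102, linked to low oxygen, had 44, 36 and 40 counts in Dx4, Dx5 and Dx6 (24.1, 19.3 and 19.1 CPM), against 30, 32 and 35 counts in CT1, CT2 and CT3 (18.8, 14.7 and 16.3 CPM). Its groups were separated only by the small step between Dx6 and CT1, with a log2 fold change of 0.34 ± 0.21. NAC032, which responds to ABA and to sugar, had 13, 11 and 18 counts in Dx4, Dx5 and Dx6 (7.12, 5.89 and 8.57 CPM), against 16, 7 and 13 counts in CT1, CT2 and CT3 (10.02, 3.21 and 6.05 CPM). The mock values of NAC032 enclosed those with dexamethasone, and its log2 fold change of 0.23 ± 0.39 was -0.11 without CT2.

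The order of levels was compared per kilobase of the longest annotated transcript. With dexamethasone the mean level was 34.5 ± 3.29 CPM per kilobase for ATAF1, 15.8 ± 2.17 for NAC102, 9.59 ± 1.80 for NAC1 and 4.16 ± 0.778 for NAC032 (SD, n = 3 each). The first 3 were each above the next with no overlap of their ranges. After NAC032 came NAC019 at 3.40 ± 1.59, RD26 at 2.66 ± 0.984, NAP at 1.25 ± 1.15, ORE1 at 0.532, JUB1 at 0.381 and NAC100 at 0 CPM per kilobase, and from NAC032 downwards no neighbour differed from the next beyond the spread of the libraries. In mock the mean level was 28.1 ± 2.72 CPM per kilobase for ATAF1, 12.6 ± 1.58 for NAC102, 9.75 ± 2.88 for NAC019, 7.17 ± 2.14 for NAP, 3.93 ± 1.63 for RD26 and 3.71 ± 1.98 for NAC032. ORE1 at 1.57, JUB1 at 0.416, NAC100 at 0.395 and NAC1 at 0.358 CPM per kilobase closed the mock order. Among neighbours in mock, only ATAF1 and NAC102 did not overlap. ATAF1 and NAC102 thus led both groups, and NAC1 ranked 3 of 10 with dexamethasone. In mock NAC1, NAC100 and JUB1 had 5, 4 and 3 counts in all, so their order there is not resolved.

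**Figure D2:**
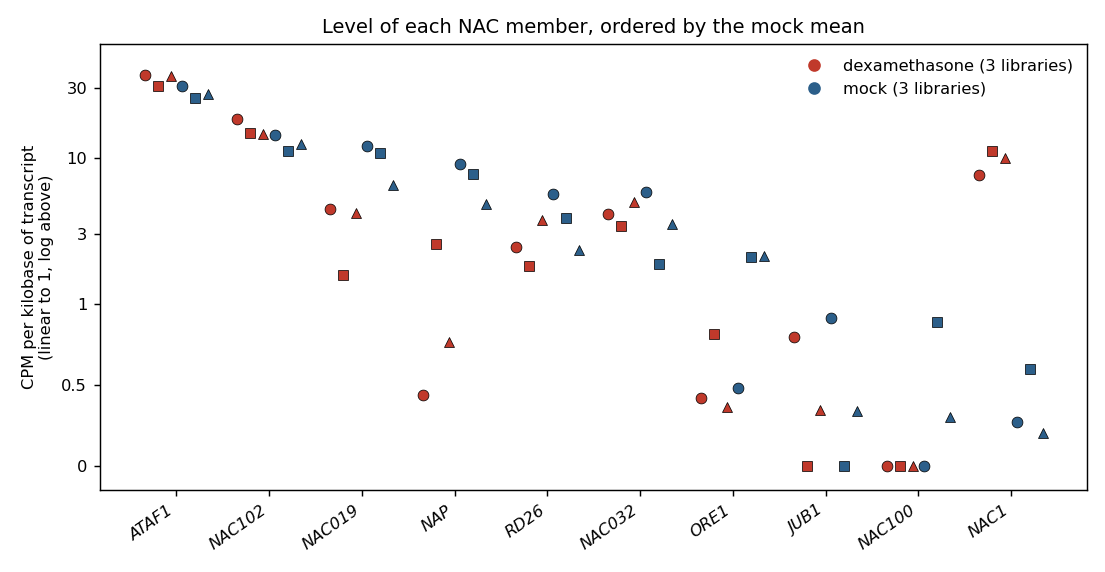
CPM per kilobase of transcript for the 10 NAC genes in each library, dexamethasone in red left of mock in blue, on an axis that is linear to 1 and logarithmic above, with genes ordered by their mock mean. ATAF1 is highest in both groups, and NAC1 averages 9.59 CPM per kilobase with dexamethasone and 0.358 in mock, where its range overlaps those of NAC100 and JUB1.

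The 10 genes together summed to 122, 111 and 124 CPM in Dx4, Dx5 and Dx6, and to 120, 97.2 and 90.7 CPM in CT1, CT2 and CT3. Without NAC1 the other 9 summed to 104.7, 85.6 and 101.5 CPM in Dx4, Dx5 and Dx6, and to 119.6, 95.8 and 90.2 CPM in CT1, CT2 and CT3. These sums overlapped between the groups both with and without NAC1.

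The mock libraries alone showed how the stress and senescence genes vary without dexamethasone. NAP, NAC019 and RD26 were highest in CT1, lower in CT2 and lowest in CT3, which is the order of the dawn-gene sum. CT1 was above CT3 by 1.87-fold for NAP, 1.84-fold for NAC019 and 2.39-fold for RD26, beside 2.24-fold for the dawn-gene sum. The order rests on few counts. In CT1, CT2 and CT3 these were 18, 21 and 13 for NAP, 26, 32 and 19 for NAC019, and 16, 15 and 9 for RD26. Whether the order exceeds counting error was not tested. ATAF1 and NAC102 varied by 1.14-fold and 1.15-fold between the same 2 libraries, and both were lowest in CT2. NAC032 did not follow the dawn-gene order either, with its lowest mock value in CT2 (3.21 CPM), and ORE1 was lowest in CT1 (0.626 CPM). With 3 libraries no correlation was computed. The part of collection time or of light in the NAP and NAC019 differences was not tested.

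**Figure D3:**
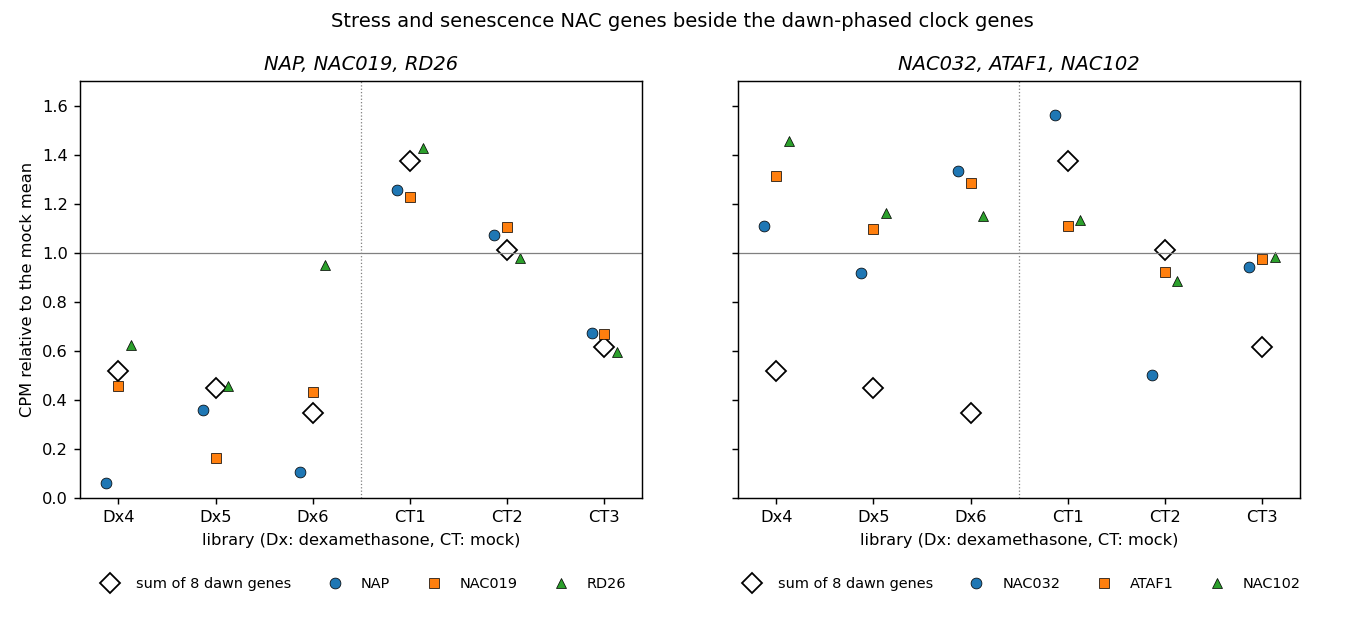
CPM of 6 NAC genes in each library relative to their mock mean, dexamethasone libraries left of the dotted line and mock libraries right of it, with open diamonds for the summed CPM of 8 dawn-phased clock genes. NAP, NAC019 and RD26 descend from CT1 to CT3 with the diamonds, while ATAF1 and NAC102 stay near or above 1 in the dexamethasone libraries, where the diamonds are low.

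Markers of green tissue and of floral organs differed between the groups as well. The summed level of 5 mesophyll markers was 3111 to 3233 CPM with dexamethasone and 4893 to 5499 CPM in mock, and that of 6 floral organ markers was 678 to 694.5 CPM with dexamethasone and 819 to 904 CPM in mock. Within the floral sum AP1, SEP3 and LFY fell (log2 fold changes -0.92, -0.97 and -1.07), while PI, AP3 and AG were not called (0.04, 0.32 and -0.15). AP3 was higher in every dexamethasone library than in any mock library, and AG was lower, by a small step (71.2 against 71.6 CPM). The groups did not overlap for 31% of all tested genes. With the dawn-gene covariate LFY was no longer called (edgeR adjusted p = 0.316). Nor was the meristem marker TFL1 (log2 fold change -0.20, edgeR adjusted p = 0.879). RBCS1A, the small subunit of Rubisco, was the most abundant mesophyll marker at 2656 ± 71.1 CPM with dexamethasone and 4276 ± 232 CPM in mock. RBCS1A and LHCB2.1 were called lower, LHCB2.1 not without CT1, CT2, Dx5 or Dx6 (edgeR adjusted p up to 0.119). Both stayed called with the dawn-gene covariate. LHCB1.1, PSAD1 and CA1 were not called (log2 fold changes -2.97, -0.29 and -0.59). LHCB1.1 had 351, 263 and 86.0 CPM in CT1, CT2 and CT3, the order of the dawn-gene sum. In bulk apices fewer green cells and less RNA per cell cannot be told apart. The part of collection time in these markers was not tested. Phloem and vessel markers summed to 48.7 to 64.8 CPM with dexamethasone and 51.4 to 82.3 CPM in mock, with overlap, and root markers to 13.4 to 24.3 CPM with dexamethasone and 36.3 to 46.4 CPM in mock. Nearly all of the root sum was SHR, which is also active in the shoot vasculature, and WOX5 had 11 counts with dexamethasone and 2 in mock. The part of tissue makeup in the NAC differences was not tested.

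The wider family was read from NAC names, or the words NAC domain, in RefSeq, which gave 101 NAC genes, 14 of them without a count in any library. Adding genes known only by the description No Apical Meristem gave 113, with 19 lacking any count and the same 32 tested. This search missed NTL9, a tested NAC gene of the hand-made list below. Of the 91 outside the 10 genes, 25 were tested, 5 (20.0%) were called lower and 0 higher, where 8.02% of all tested genes were called lower and 5.86% higher, with a median log2 fold change of 0.02 against 0.0035 over all genes tested. The 5 that fell were LOV1, which delays flowering (log2 fold change -0.98 ± 0.29, edgeR adjusted p = 0.0292), VNI2, a repressor of vessel formation and of leaf ageing (-0.73 ± 0.23, 0.041), NAC013, which mediates mitochondrial stress signals (-0.68 ± 0.20, 0.0263), NAC089, a membrane-bound factor (-0.68 ± 0.22, 0.0439), and NAC014 (-0.74 ± 0.24, 0.0463). VNI2 stood at 12.5 ± 2.18 CPM with dexamethasone and 21.1 ± 3.28 CPM in mock, and NAC013 at 19.7 ± 4.20 CPM with dexamethasone and 31.7 ± 4.64 CPM in mock. All 5 calls depended on single libraries. The VNI2 and NAC089 calls were each lost without any 1 of 5 libraries (edgeR adjusted p up to 0.165 and 0.16), the LOV1 call without any 1 of 4 (up to 0.13), and the NAC013 and NAC014 calls each without any 1 of 3 (up to 0.166 and 0.184). In the whole family DESeq2 called 2 genes lower, NAP and NAC019, and limma-voom called 5. In a hand-made list of 26 NAC genes outside the 10, 14 were tested, 4 were called lower and 0 higher, while 3 had an unadjusted edgeR p under 0.05 in the higher direction and DESeq2 and limma-voom called 0 higher.

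**Figure D4:**
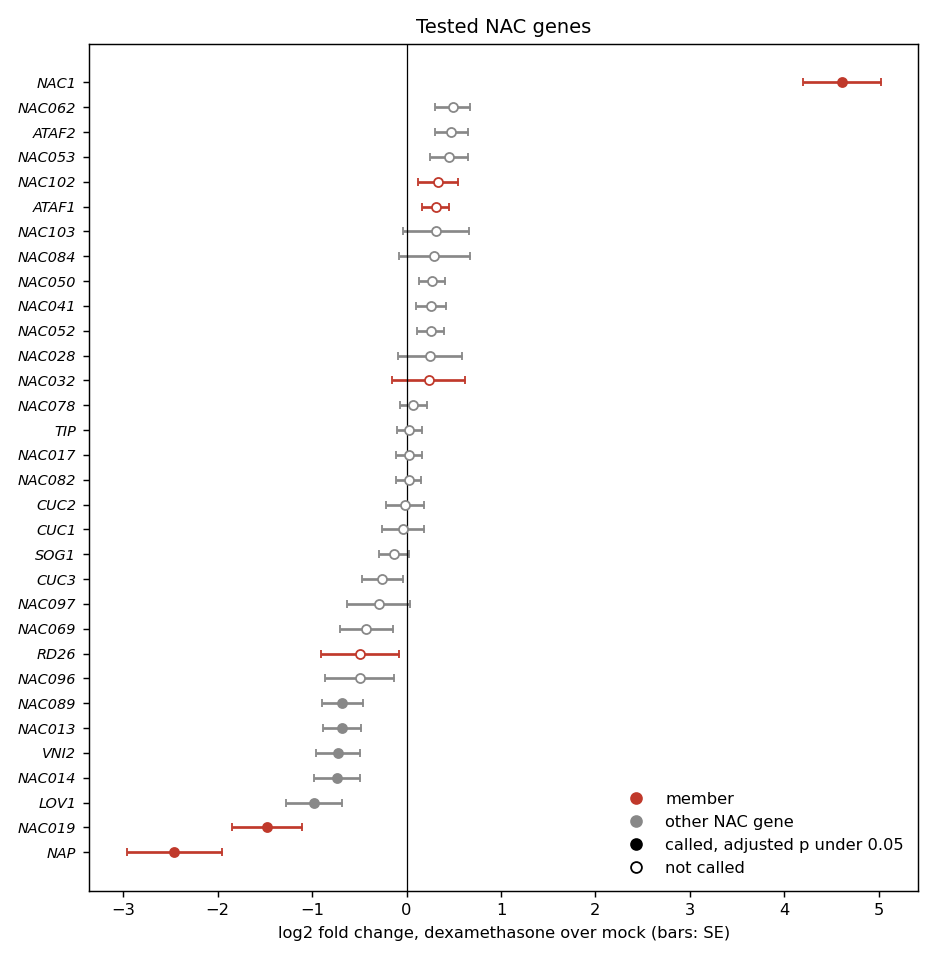
Log2 fold change of dexamethasone over mock with its SE for the 32 tested NAC genes found by RefSeq name, ordered by size. The 7 tested genes of the 10 are in red and the others in grey, filled where called. NAC1 at 4.61 stands far to the right of the remaining genes, and NAP at -2.46 and NAC019 at -1.48 are at the lower end.

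Of 10 genes that act with NAC1 in auxin signalling or after it, 7 were tested, 0 were called higher and 2 lower, with a median log2 fold change of -0.11 against 0.0035 over all genes. As the background for this list, the hand-made NAC list and the following lists, 5.86% of all tested genes were called higher and 8.02% lower. TIR1, an auxin receptor that acts before NAC1 in lateral root formation, fell to 119 ± 1.79 CPM with dexamethasone, against 175 ± 22.1 CPM in mock (log2 fold change -0.55 ± 0.13, edgeR adjusted p = 0.00614). AIR3, a subtilisin-like protease gene that NAC1 activates in roots, fell to 4.21 ± 1.31 CPM, against 14.7 ± 1.84 CPM in mock (-1.82 ± 0.32, edgeR adjusted p = 0.000635). In the higher direction 1 gene had an unadjusted edgeR p under 0.05, and DESeq2 and limma-voom called 0. The TIR1 call was lost without CT2 (edgeR adjusted p = 0.0592) and without Dx5, and the AIR3 call was kept on leaving out any 1 library.

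Of 17 genes known to regulate senescence NAC genes, 11 were tested, 0 were called higher and 3 lower, with a median log2 fold change of -0.28. EIL1, a transcription factor of ethylene signalling related to EIN3, fell to 7.80 ± 0.855 CPM with dexamethasone, against 20.1 ± 4.15 CPM in mock (log2 fold change -1.39 ± 0.26, edgeR adjusted p = 0.00107). ABI5, a bZIP factor of ABA responses, fell to 23.1 ± 3.54 CPM, against 43.7 ± 9.36 CPM in mock (-0.90 ± 0.19, edgeR adjusted p = 0.00267). WRKY70, a factor of salicylic acid defence that restrains senescence, fell to 30.1 ± 6.88 CPM, against 48.7 ± 9.23 CPM in mock (-0.70 ± 0.19, edgeR adjusted p = 0.0145). EIL1 and ABI5 were called on leaving out any 1 library, and the WRKY70 call was lost without CT2 (edgeR adjusted p = 0.128), Dx4 or Dx6. With the dawn-gene covariate the ABI5 and WRKY70 calls were lost (edgeR adjusted p = 0.11 and 0.168), and that of EIL1 was not. DESeq2 did not call WRKY70 (adjusted p = 0.067). No gene of the list had an unadjusted edgeR p under 0.05 in the higher direction, and DESeq2 and limma-voom called 0 there.

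Of 22 listed targets of the 10 genes, 16 were tested, 3 were called higher and 3 lower, with a median log2 fold change of -0.24. NCED3, the rate-limiting enzyme of ABA synthesis and a target of ATAF1, fell to 2.73 ± 0.573 CPM with dexamethasone, against 15.4 ± 8.33 CPM in mock (log2 fold change -2.40 ± 0.43, edgeR adjusted p = 0.000699). GLK2, a factor of chloroplast development, fell to 4.22 ± 2.33 CPM, against 14.8 ± 6.16 CPM in mock (-1.73 ± 0.39, edgeR adjusted p = 0.00566). Whether any of the 10 acts on the GLK2 gene directly was not checked here. TRE1, the trehalase and a target of ATAF1, fell to 6.15 ± 2.22 CPM, against 15.2 ± 2.03 CPM in mock (-1.32 ± 0.30, edgeR adjusted p = 0.00542). All 3 were lower in every dexamethasone library than in any mock library. DWF4, an enzyme of brassinosteroid synthesis that JUB1 represses, rose to 51.7 ± 5.77 CPM, against 25.5 ± 4.64 CPM in mock (1.04 ± 0.17, edgeR adjusted p = 0.000315). GAI, a DELLA repressor of gibberellin signalling that JUB1 activates, rose to 92.5 ± 3.72 CPM, against 54.8 ± 3.91 CPM in mock (0.75 ± 0.13, edgeR adjusted p = 0.000627). GLK1, which ATAF1 represses, rose to 54.1 ± 7.24 CPM, against 34.8 ± 7.93 CPM in mock (0.62 ± 0.17, edgeR adjusted p = 0.0187). For these 3 every dexamethasone library was above every mock library. The groups did not overlap for 31% of all tested genes. The 6 targets were named because they were called, so their separation adds nothing to the calls. JUB1 itself had 3 counts in each group, and ATAF1 was not called. The GLK1 call was lost without any 1 of 4 libraries (edgeR adjusted p up to 0.122), the TRE1 call without Dx6 (0.0549), and the GLK1 and GLK2 calls with the dawn-gene covariate (0.415 and 0.121). DESeq2 did not call GLK1 (adjusted p = 0.0876).

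Of 14 genes of senescence and chlorophyll breakdown, 9 were tested, 0 were called higher and 3 lower, with a median log2 fold change of -0.27. NYC1, a chlorophyll b reductase, fell to 74.4 ± 2.24 CPM with dexamethasone, against 142 ± 10.8 CPM in mock (log2 fold change -0.94 ± 0.13, edgeR adjusted p = 5.1e-05). ATG8E, an autophagy protein, fell to 22.1 ± 6.39 CPM, against 44.8 ± 7.199 CPM in mock (-1.04 ± 0.20, edgeR adjusted p = 0.00135). GDH1, a glutamate dehydrogenase, fell to 63.3 ± 3.39 CPM, against 87.7 ± 7.72 CPM in mock (-0.46 ± 0.13, edgeR adjusted p = 0.0237). NYC1 and ATG8E were called on leaving out any 1 library, and the GDH1 call was lost without any 1 of 5 (edgeR adjusted p up to 0.137), with the dawn-gene covariate (0.171) and in DESeq2 (0.103). SAG12, a protease gene used as a mark of advanced leaf senescence, had 4 counts with dexamethasone and 0 in mock, where a count of 0 allows up to 3 counts per library. In the higher direction 0 genes had an unadjusted edgeR p under 0.05, and DESeq2 and limma-voom called 0.

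**Figure D5:**
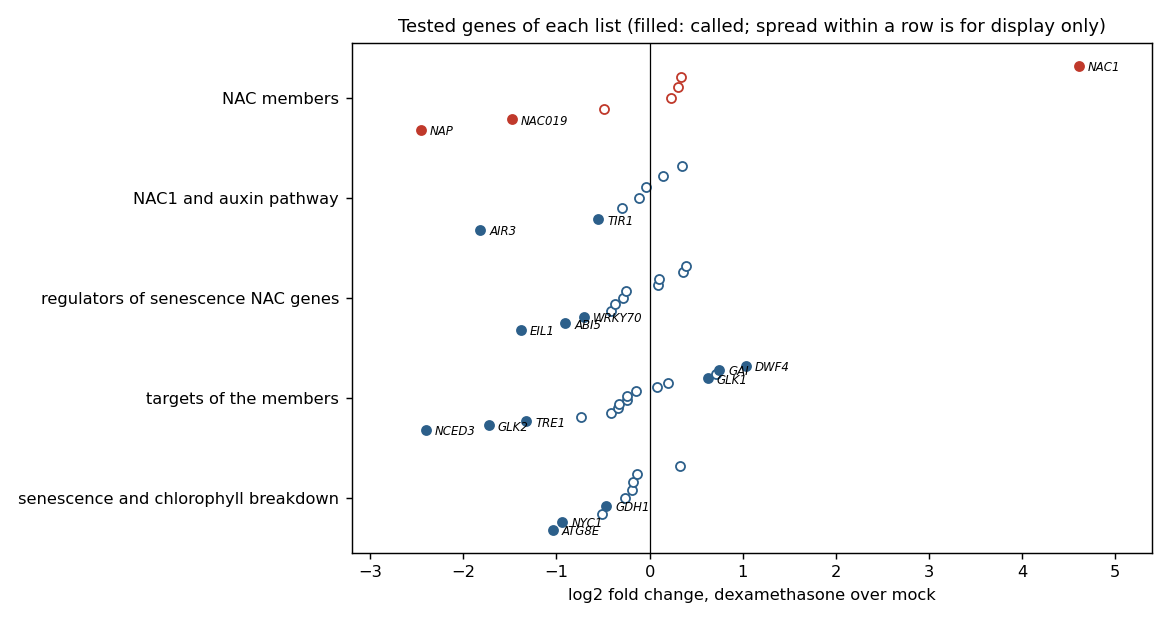
Log2 fold change of dexamethasone over mock for the tested genes of the 10 NAC genes (red) and of 4 pathway lists (blue), filled and named where called. In the lists the called genes lie on the left except DWF4, GAI and GLK1 among the targets.

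The promoters are shown for the genes that hold the G-box CACGTG, the core of many ABA and light response elements, within the 250 bases before the annotated start. CACGTG was found, on both strands since it is its own complement, in NAP, NAC032 and NAC019, that is in 3 of 10 genes and in 6.49% of 27443 promoter windows of that length. Capitals mark CACGTG and the shorter ACGTG on either strand, which overlaps it and was found in 22.9% of windows. NAP and NAC019 are the genes called lower, and NAC032, with the element 50 bases before its start, was not called.
NAP promoter, chr1:26121830-26122079, plus strand: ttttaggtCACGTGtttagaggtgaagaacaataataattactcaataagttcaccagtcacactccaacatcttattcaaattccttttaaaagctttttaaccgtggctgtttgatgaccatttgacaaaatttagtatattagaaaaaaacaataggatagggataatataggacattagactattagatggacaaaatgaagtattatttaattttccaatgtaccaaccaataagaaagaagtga
NAC019 promoter, chr1:19698483-19698732, minus strand: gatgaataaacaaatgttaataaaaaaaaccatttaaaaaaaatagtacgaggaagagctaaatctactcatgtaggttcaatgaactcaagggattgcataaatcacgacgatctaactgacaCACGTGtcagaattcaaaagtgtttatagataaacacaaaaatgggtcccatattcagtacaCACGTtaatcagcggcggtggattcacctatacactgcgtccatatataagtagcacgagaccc
NAC032 promoter, chr1:29099589-29099838, plus strand: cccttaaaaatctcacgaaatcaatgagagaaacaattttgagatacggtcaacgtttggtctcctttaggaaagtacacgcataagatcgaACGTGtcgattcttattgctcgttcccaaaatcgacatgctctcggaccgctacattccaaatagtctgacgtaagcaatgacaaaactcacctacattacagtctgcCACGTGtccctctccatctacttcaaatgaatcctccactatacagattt
The element starts 242 bases before the start of NAP and 126 bases before that of NAC019. The shorter motif alone was present in RD26. The letters bound by the second AP2 repeat, TTTGTT, were found within the 250 bases in JUB1, NAC019 and NAC100, 3 of 10 genes against 55.0% of all windows, and in neither NAC1 nor NAP. The evening element AAAATATCT and the auxin response element TGTCTC were found in none of the 10, against 2.36% and 10.95% of windows, all searched on both strands. These are matches of letters and say nothing on binding.

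The closest pairs in coding sequence were as follows. NAC032 and ATAF1 shared 75.4% of aligned bases, ORE1 and NAC100 74.2%, NAC019 and RD26 72.3%, NAP and NAC019, the genes called lower, 70.2%, and ATAF1 and NAC102 69.9%. Of the pair NAC019 and RD26, the first was called and the other was not, and the difference between their responses was not tested. Coding sequences ran from 253 codons in NAC032 to 336 in NAC100, each over 3 exons. Exon words shared with other genes were 18.4% in ATAF1, all with the opposite-strand long non-coding RNA AT1G04043, 4.22% in JUB1, with AT2G42990 on the opposite strand, 2.34% in NAC102, with SHA1 on the opposite strand, and 0 in NAP, ORE1, NAC032, NAC019, RD26 and NAC100. AT2G42990 rose by a log2 fold change of 0.87 ± 0.19 (edgeR adjusted p = 0.0081). It has its own row in the read counts, and how reads in the exons it shares with JUB1 were counted is not stated. SHA1 (log2 fold change 0.11 ± 0.22, edgeR adjusted p = 0.796) and AT1G01725, which overlaps the ATAF1 gene (-0.40 ± 0.33, edgeR adjusted p = 0.484), were not called. AT1G04043 has no row in the read counts, so the limit on strand given for NAC1 holds for ATAF1 as well.

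The genes whose pattern was most like that of NAC1 were sought over 15728 tested genes of at least 5 CPM. By Pearson's r of log2 CPM over the 6 libraries, they were AT1G21740 (0.999), IDD7 (0.998), AT1G11950 (0.997), AT3G15530 (0.997) and IQD33 (AT5G35670, 0.997). AT1G21740 had 89.4 ± 5.31 CPM with dexamethasone and 43.8 ± 3.19 CPM in mock. For NAP they were AT3G05345 (0.997), XXT4 (0.994), LPA19 (0.992), ERS2 (0.991) and AT4G13530 (0.989), of which ERS2, an ethylene receptor, was not called (log2 fold change -0.25 ± 0.18). The libraries fall into 2 groups on both genes, so each r mostly repeats the difference between the groups and is a description.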

How the data were processed

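The deposited values are raw read counts per locus made by the authors with HTSeq, per the name of the table. Per the submitters' processing notes the tools were Bowtie, TopHat, Cufflinks and RSEM, with neither roles nor versions. The sources used here do not state the genome build, the annotation or the strand setting. There were 28775 loci, of which 28009 had a RefSeq row, and 3 blank lines. CT columns were taken as mock and Dx columns as dexamethasone, and columns were matched to groups only. The labels do not say whether libraries of 1 group are from separate plants, so the p-values describe library-to-library spread, part or all of which may be technical.

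The test was that of edgeR 4.0.16, run in R 4.3.3 (TMM, filterByExpr with a minimum count of 10, robust quasi-likelihood test, two-sided), with Benjamini-Hochberg adjustment over 15857 genes and a threshold of 0.05. Each SE was derived from the fold change and its F statistic. CPM used TMM-scaled library sizes. The fit was tested on simulated data. Alternatives were DESeq2 1.42.0 (size factors, Wald test), library size scaling, limma-voom (limma 3.58.1), other filters, leaving out each library, and a covariate made of the average log2 CPM of 8 dawn-phased genes (CDF1, LNK1, LNK2, PRR9, RVE1, RVE8, LHY and CCA1). Binomial intervals and the 3-count limit cover only counting error.

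The 10 genes and all lists were chosen with earlier results of these data known. Named were the 10 genes, AP2, the called genes of the 6 pathway lists (95 genes) up to 6 per list, at most 2 of a list with none, genes overlapping or next to the 10, and the 5 genes most like NAC1 and NAP. NAC014, markers and SAG12 were named after their values were seen. SINAT5 was left out because RefSeq gives its locus no such name. Sequences were read from RefSeq TAIR10.1 with Biopython 1.88. Identity was computed on coding bases in place of proteins, for which no table was used here.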

Additional observations from a re-analysis of the deposited data

How the results depend on the processing

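Over 13 alternatives and 325 single-gene comparisons, 269 kept their direction and call, 54 lost the call and 0 gained one. These covered the tested NAC genes of the 10 and the pathway genes called in the main fit. Only the 4 uncalled NAC genes could therefore gain a call. Reversals were the log2 fold change of NAC032, which ranged from -0.112 to 0.636 over leaving out each library, and that of RD26, 0.16 with the dawn-gene covariate. Leaving out each library gave 441 to 1816 genes higher and 668 to 1974 lower, 1 to 2 of the 10 NAC genes lower, 2 to 6 pathway genes higher and 8 to 17 lower, and 1 to 3 NAC family genes higher and 2 to 7 lower. CT3 gave the highest of these counts when left out. The Wald test of DESeq2 called 506 genes higher and 772 lower, with 9 pathway genes and 2 NAC family genes lower. With the dawn-gene covariate, which overlaps with the treatment, edgeR called 0 of the 10 NAC genes lower and 0 NAC family genes lower. No filter beyond 1 count gave 3 NAC family genes higher. The causes were not tested. No paired analysis was possible because the columns carry no number that ties a dexamethasone library to a mock library. ORE1, JUB1 and NAC100 were left out of the test by the filter on low counts.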
